A study of Mus musculus and Homo sapiens with 34 samples.

Results

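Claudin transcripts were followed across 34 RNA sequencing libraries of lung adenocarcinoma cultures, which form 17 groups of 2 replicates. The members are 10 claudin genes, Cldn1, Cldn2, Cldn3, Cldn4, Cldn6, Cldn7, Cldn12, Cldn15, Cldn18 and Cldn23, taken by gene name, in upper case in the human tables, from all 7 tables of raw read counts. They are 10 of the 48431 mouse and human Ensembl genes listed in those tables, where a mouse gene and its human counterpart count separately in the total, and 6 other claudin genes were also listed.

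The 3154 organoids are a mouse lung tumour culture that carries p53frt, a tamoxifen-activated Cre from Rosa-FSF-CreERT2, and Hnf4aflox, and its controls share these alleles. In one experiment they were exposed to ethanol or to 4-hydroxytamoxifen (4OHT, given as 2 mM in the labels) for 2 days to remove Hnf4a, and RNA was taken 2 weeks later. In the other, organoids given ethanol or 4OHT were kept for 48 hours with or without 3 nM MRTX1133, a small-molecule inhibitor. Below, 48 hours names this experiment and is not a known time after 4OHT. For these organoids the interval between 4OHT and sampling is not given in the labels, whose protocol states the 4OHT dose for the 2-week experiment alone. The 2 other mouse tumour cultures, 1027B (organoids) and 3311 (a cell line), share p53frt and the Cre allele Rosa-FSF-CreERT2 and have Foxa1flox and Foxa2flox in place of Hnf4aflox. The labels give no 4OHT treatment for either, so their floxed genes were not stated to be deleted. In 1027B the arms were control treatment, 10 nM trametinib, a MEK inhibitor, or 20 nM MRTX1133 for 48 hours. The 3311 cells received control treatment or 50 nM trametinib for 48 hours. The human line H1651, with a lentiviral HNF4α construct, was left without doxycycline or given 1 μg/mL doxycycline for 7 days. H1651 cells, with no construct named, and the human line H358 received control treatment or 20 nM trametinib for 48 hours. No library had 4OHT without Hnf4aflox, or doxycycline without the construct. Loss of Hnf4a and 4OHT itself, or a gain of HNF4A and doxycycline itself, therefore cannot be told apart. Each culture is 1 line, and the labels do not say whether its replicates were separate cultures, so the p-values below measure the spread between these libraries, which may be technical.

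Claudins are membrane proteins with 4 transmembrane segments that make the strands of the tight junction, the belt that seals neighbouring epithelial cells together. Some members, such as claudin-1, claudin-3, claudin-4 and claudin-18, tighten the seal, whereas claudin-2 and claudin-15 form channels that let small cations, and for claudin-2 also water, pass between cells. In normal lung, claudin-18 is a main alveolar claudin together with claudin-3 and claudin-4, and another form of claudin-18, made from a different first exon, belongs to the stomach. Claudin-2 is abundant in gut, liver and kidney epithelium, and claudin-6 is known mainly from embryonic epithelium and some tumours.

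Expression is given as read counts scaled to library size by TMM (CPM), for both libraries of a group or as mean ± SD (n = 2). Changes are log2 fold changes from edgeR's quasi-likelihood test, fitted over all genes of a table. Genes with a Benjamini-Hochberg adjusted p under 0.05 are referred to as called. Libraries held 19692517 to 45284286 counts. The summed level of 5 epithelial genes was 3600 to 10900 CPM in all libraries. Fibroblast genes summed to at most 1.69 CPM in 3154 and 1027B, with 1 or 2 of the 7 genes listed, and to 11.4 to 15.8 CPM in 3311, but to 416 to 750 CPM in H1651. Hnf4a, the targeted gene, fell with 4OHT from 371 ± 79.6 to 60.7 ± 10.2 CPM at 2 weeks and from 225 ± 6.60 to 49.9 ± 0.677 CPM in the 48-hour experiment, and HNF4A rose with doxycycline from 41.5 ± 7.89 to 95.6 ± 1.73 CPM. The labels do not say which exons the Hnf4aflox alleles flank. Dusp6, a target of ERK signalling, fell with trametinib in 1027B, 3311 and H358 and with MRTX1133 in 1027B. It was not called with MRTX1133 in 3154 organoids treated with ethanol (log2 change −0.09, SE 0.23, adjusted p = 0.933) or 4OHT (−0.60, SE 0.23, adjusted p = 0.198), nor in H1651 with trametinib, where it stood at 50.8 ± 1.41 and then 6.37 ± 1.55 CPM (adjusted p = 0.149).

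Each mouse culture had its own mixture of claudins. Levels of different genes were compared as CPM per kilobase of exon, and only in mouse. In 3154 at 2 weeks after ethanol, Cldn6 led with 323 ± 41.3 CPM per kb, 36.5% of the summed claudin level, and Cldn4 was next with 243 ± 21.7 CPM per kb. Cldn6 exceeded Cldn4 in both libraries, whereas Cldn3 (135 ± 28.7 CPM per kb) and Cldn7 (132 ± 14.2 CPM per kb) followed and were not in the same order in both. In the 48-hour ethanol controls of the same culture Cldn4 led with 262 ± 30 CPM per kb, and Cldn7, Cldn3 and Cldn6 lay between 143 and 171 CPM per kb. The 2 experiments are separate tables, so that shift in order was not tested.

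In 1027B controls Cldn4 (113 ± 14.9 CPM per kb), Cldn7 (109 ± 5.90 CPM per kb) and Cldn2 (93.6 ± 22.5 CPM per kb) lay close together. Cldn4 and Cldn7 did not keep 1 order over the libraries, and Cldn7 exceeded Cldn2 in both, at 113 against 110 and 105 against 77.7 CPM per kb, with ranges that overlapped. Cldn6, the leading claudin of 3154 at 2 weeks, was not listed in the 1027B and 3311 tables. The 3311 cells had the smallest claudin pool of the mouse cultures, 103 CPM per kb in controls against 443 in 1027B controls and 781 to 885 in the ethanol controls of 3154. Cldn3 made 65.5% of it, and Cldn4, a leading claudin of both organoid cultures, stood at 0.314 ± 0.300 CPM per kb. Culture and experiment cannot be told apart in these differences of level.

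**Figure D1:**
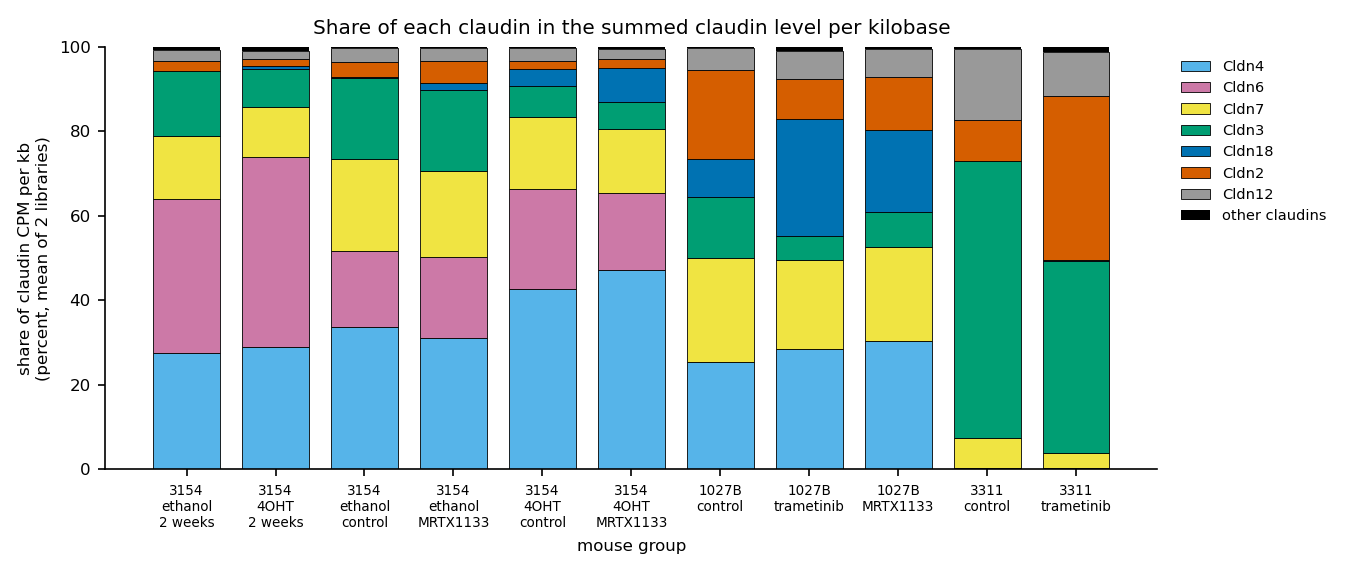
Stacked bars give the share of each claudin (percent, mean of 2 libraries) in the summed claudin CPM per kilobase of exon of each mouse group, with claudins outside the 7 coloured genes in black. Cldn4 and Cldn6 fill most of the 3154 bars, Cldn2 and Cldn18 widen in 1027B, and Cldn3 makes 65.5% of the 3311 control bar.

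Cldn18 (ENSMUSG00000032473, mouse chromosome 9, minus strand) was the member most often called in mouse, in 6 comparisons and always higher, and its 2 start sites in RefSeq are shown because its counts pool the transcripts from both. The 250 bases before each start, read 5′ to 3′ on the gene's strand from GRCm38.p6, are printed below in lower case. Capitals mark CAAGTG, the core motif bound by NKX2-1, the lung lineage factor, which occurs on either strand in 11.6% of 32851 windows of this length before RefSeq starts.
Cldn18 upstream start, chr9:99717268-99717517: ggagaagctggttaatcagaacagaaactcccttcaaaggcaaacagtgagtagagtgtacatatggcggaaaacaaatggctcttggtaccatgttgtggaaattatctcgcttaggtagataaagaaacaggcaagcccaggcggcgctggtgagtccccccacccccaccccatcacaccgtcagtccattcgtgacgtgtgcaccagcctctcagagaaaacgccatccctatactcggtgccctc
Cldn18 downstream start, chr9:99710064-99710313: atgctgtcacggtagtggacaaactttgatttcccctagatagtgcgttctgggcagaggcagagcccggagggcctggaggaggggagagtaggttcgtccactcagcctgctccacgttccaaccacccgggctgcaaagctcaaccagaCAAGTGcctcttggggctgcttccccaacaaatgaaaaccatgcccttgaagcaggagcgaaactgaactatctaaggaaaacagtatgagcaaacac
The motif begins 98 bases before the downstream start and is not in the upstream window. The tables hold 1 count per gene, so which start the transcripts used is not given by these data.

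At 2 weeks, Cldn18 stood at 6.40 and 2.74 CPM in the ethanol libraries and at 27.7 and 25.3 CPM in the 4OHT libraries. Both 4OHT libraries lay above both ethanol libraries, and Cldn18 rose 5.73-fold (log2 change 2.52, SE 0.40, adjusted p = 0.0207). It was the only member called of 9 tested in this comparison, where 9.81% of all genes were called. Without 4OHT replicate 1 or replicate 2 the adjusted p was 0.0688 or 0.0507. The log2 change was 3.26 without ethanol replicate 1 and 2.05 without ethanol replicate 2. These are bulk cultures, so a change in the number of cells of a type and a change in RNA per cell cannot be told apart.

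In the 48-hour experiment Cldn18 was at 12.2 and 8.69 CPM with ethanol and at 112 and 128 CPM with 4OHT, a rise of 11.5-fold (log2 change 3.53, SE 0.23, adjusted p = 0.000141). With MRTX1133 added to both arms it was at 66.9 and 47.1 CPM with ethanol and 308 and 291 CPM with 4OHT, a rise of 5.26-fold (2.39, SE 0.22, adjusted p = 0.000379). The 4 groups did not overlap, and the libraries with 4OHT and MRTX1133 together were the highest. Members called were 3 of 9 without MRTX1133, against 31% of all genes, and 4 of 9 with it, against 27.7%.

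MRTX1133 itself went with higher Cldn18 in both backgrounds. From the values above, Cldn18 rose 5.47-fold with ethanol (log2 change 2.45, SE 0.22, adjusted p = 0.0132) and 2.49-fold with 4OHT (1.32, SE 0.21, adjusted p = 0.0205). It was the only called member of 9 in each of these comparisons, which called 0.349% and 4.64% of all genes. These comparisons share their libraries with the deletion comparisons, so they are not independent of them. Without ethanol MRTX1133 replicate 1 the first adjusted p was 0.0687, and in a fit of only the 2 groups compared it was 0.207. The second was 0.102 to 0.250 without any 1 of its 4 libraries (4OHT control or 4OHT MRTX1133, replicate 1 or 2).

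The difference between the deletion effects with and without MRTX1133 was −1.13 on the log2 scale for Cldn18 (SE 0.30, adjusted p = 0.541), so it was not called. None of the 9 members was called for this difference by edgeR, with 0% of genes called, while 2 members and 1150 genes had an unadjusted p under 0.05. DESeq2 called 36 genes. Hnf4a also fell with MRTX1133 in 4OHT organoids, from 49.9 ± 0.677 to 27.5 ± 3.16 CPM (log2 change −0.86, SE 0.13, adjusted p = 0.0185). In ethanol organoids it was at 225 ± 6.60 CPM without and 182 ± 3.02 CPM with MRTX1133 and was not called (−0.31, adjusted p = 0.378). The part of Hnf4a in the Cldn18 changes with MRTX1133 was not tested.

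In 1027B, where Hnf4a had not been targeted, Cldn18 was at 156 and 195 CPM in controls, at 393 and 463 CPM with trametinib and at 262 and 347 CPM with MRTX1133. Both inhibitor groups lay above the controls. It rose 2.44-fold with trametinib (log2 change 1.29, SE 0.18, adjusted p = 0.00426). With MRTX1133 the log2 change was 0.80 (SE 0.18, adjusted p = 0.0504), just outside the threshold. A fit with the replicate number as a block gave an adjusted p of 0.000246, although the labels do not say that replicates pair, and DESeq2 gave 0.00216. It was not called with RLE factors or in a fit of those 2 groups only, and the highest adjusted p over alternatives with all libraries was 0.072. With 1 library left out the log2 change was 0.59 to 0.99. Trametinib called 4 of 7 members against 26.7% of genes and MRTX1133 called 2 of 7 against 6.27%. Both comparisons use the same 2 control libraries.

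**Figure D2:**
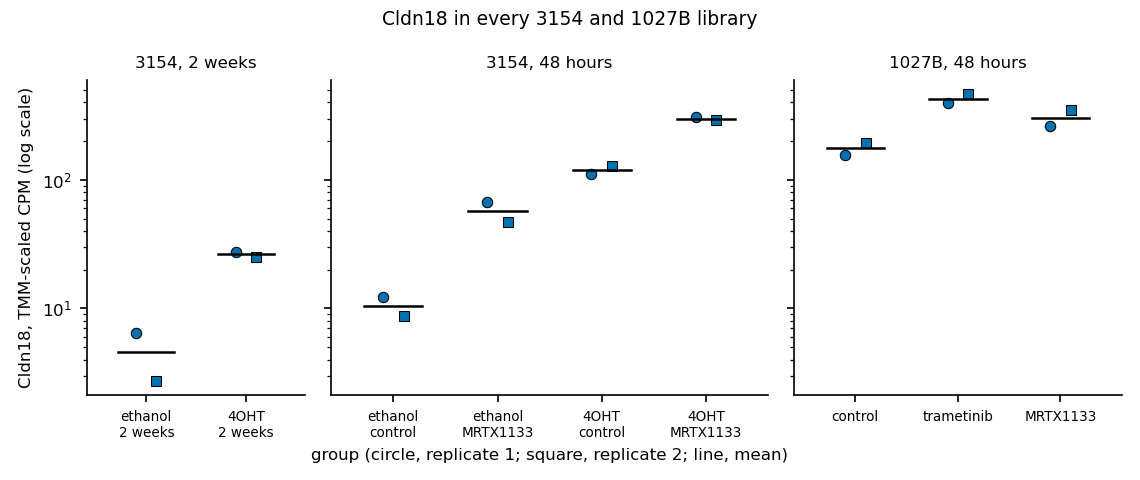
Points give Cldn18 in TMM-scaled CPM on a log axis for each library (circle, replicate 1, and square, replicate 2) and lines give group means. The 48-hour 3154 groups rise from 8.69 CPM in the lowest ethanol control to 308 CPM in the highest library with 4OHT and MRTX1133, without overlap, and all 1027B inhibitor libraries lie above the controls.

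Markers of alveolar type 1 cells, the thin cells of the gas exchange surface, moved as a sum with Cldn18 in the 48-hour and 1027B experiments. The sum of Ager, Hopx and Rtkn2, all 3 listed and none at 0 counts, was 511 to 598 CPM with ethanol, 1120 to 1150 with 4OHT, 1270 to 1370 with ethanol and MRTX1133, and 2380 to 2700 with both agents. In 1027B it was 60.6 to 189 CPM in controls, 917 to 1470 with trametinib and 431 to 791 with MRTX1133. There Ager (log2 change 3.87), Hopx (1.45) and Rtkn2 (2.38) were called with trametinib. With MRTX1133 only Rtkn2 was called (1.78, adjusted p = 0.0276). Ager (2.85, adjusted p = 0.0635) was not, nor was Hopx (0.72, adjusted p = 0.336), whose groups overlapped. At 2 weeks the sum was 828 to 884 CPM with ethanol and 824 to 864 CPM with 4OHT, while Cldn18 separated the groups. Ager carried most of that sum, at 669 ± 46.0 and 619 ± 20.2 CPM, and was not called (log2 change −0.11, adjusted p = 0.579). Rtkn2, a low member of the list, rose at 2 weeks from 2.18 and 1.80 to 5.74 and 7.57 CPM (1.74, SE 0.30, adjusted p = 0.0259), and Hopx was at 189 and 180 against 213 and 223 CPM (0.24, adjusted p = 0.229).
The sum of 4 alveolar type 2 markers, genes of the surfactant-making cell (Sftpc, Sftpb, Napsa and Lamp3), was 6070 to 8380 CPM with ethanol and 7310 to 8480 with 4OHT in the 48-hour experiment, and 10200 to 13100 and 11900 to 16200 CPM when MRTX1133 was added. Its members did not move together. In 4OHT organoids MRTX1133 went with a rise of Sftpc, at 3440 ± 513 CPM without and 11400 ± 3220 CPM with it (log2 change 1.73, SE 0.31, adjusted p = 0.0266), and with a fall of Sftpb, at 4380 ± 313 and 2580 ± 193 CPM (−0.76, SE 0.12, adjusted p = 0.0198). Lamp3 was not called there (−0.64, adjusted p = 0.0756), nor was Napsa (−0.30). In ethanol organoids MRTX1133 called none of the 4. Between ethanol and 4OHT without MRTX1133, Sftpb (0.62, adjusted p = 0.00633) and Napsa (1.00, adjusted p = 0.0137) rose. In 1027B, where Cldn18 was higher with both inhibitors, that sum was 6190 to 10100 CPM in controls, 1810 to 2340 with trametinib and 2680 to 4260 with MRTX1133. There Sftpc, a small part of the control sum, stood at 26.8 and 105 CPM in controls, 1140 and 978 CPM with trametinib and 333 and 459 CPM with MRTX1133. It rose, as Cldn18 did, with trametinib (4.01, SE 0.60, adjusted p = 0.00507), and also with MRTX1133 (2.59, SE 0.56, adjusted p = 0.0454). Lamp3 fell with both inhibitors (−3.34 and −2.63), and Sftpb fell with trametinib (−2.99, adjusted p = 0.00491) and was not called with MRTX1133 (−1.38, adjusted p = 0.108). Napsa was called with neither (−1.96 and −1.83). At 2 weeks the sum was 7720 to 10600 with ethanol and 7800 to 10200 CPM with 4OHT.
Stomach markers (Gkn1, Gkn2, Tff1, Tff2 and Ctse) as a sum moved with Cldn18 in some comparisons and against it in others. Their sum was 325 to 355 CPM with ethanol and 774 to 1220 CPM with 4OHT at 2 weeks, and 187 to 269 against 644 to 656 CPM in the 48-hour experiment. With MRTX1133 added it was 113 to 158 CPM with ethanol and 323 to 380 CPM with 4OHT, lower than without it, whereas Cldn18 was higher. Its members did not move together. Tff1 fell with MRTX1133 in 4OHT organoids (log2 change −1.32, SE 0.29, adjusted p = 0.0451) and was not called in ethanol organoids (−1.03, adjusted p = 0.23). No other stomach marker was called with MRTX1133 in 3154, and Ctse had positive changes (0.29 with ethanol and 0.23 with 4OHT). In 1027B, with 4 of the 5 genes listed, the stomach sum was 2710 to 3870 CPM in controls, 415 to 453 with trametinib and 646 to 690 with MRTX1133. Tff1 (−3.87 and −2.66), Gkn2 (−4.88 and −3.70) and Gkn1 (−3.93 and −3.38) fell there with trametinib and MRTX1133. Ctse was at 230 ± 45.6 CPM in controls, 249 ± 42.0 with trametinib and 243 ± 62.9 with MRTX1133, and was not called. The part of these 3 marker sets in the Cldn18 result was not tested. In 3311 Cldn18 had 1 to 16 counts per library and was not tested, and CLDN18 was not listed in the human tables.

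Cldn2 (ENSMUSG00000047230, mouse chromosome X, plus strand), the cation channel claudin, was called in 7 comparisons, 5 of them in mouse, and in both directions. The 250 bases before its RefSeq start are shown because of that. The bases just after this start occur in 0 of 3 GENCODE transcripts of Cldn2, so the annotations differ there. In the 250 bases shown, none of the motifs searched was found. These were CAAAGTCCA and CAAAGGTCA, forms of the HNF4 site found in 0.384% and 0.426% of the windows, CAAGTG, the FOXA core TGTTTAC (3.17%) and the AP-1 site TGANTCA (6.75%), all on both strands.
Cldn2, chrX:139800558-139800807: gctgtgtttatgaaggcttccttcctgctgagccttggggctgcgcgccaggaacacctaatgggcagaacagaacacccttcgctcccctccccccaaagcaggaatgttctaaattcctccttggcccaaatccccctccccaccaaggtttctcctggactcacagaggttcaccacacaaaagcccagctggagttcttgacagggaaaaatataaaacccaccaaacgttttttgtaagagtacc
Neither HNF4 form occurs in any of the 13 windows of the 9 members that have one.

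In 3154 at 48 hours Cldn2 was at 80.9 and 110 CPM with ethanol and at 37.0 and 48.5 CPM with 4OHT, and it fell to 0.448 of the control level (log2 change −1.16, SE 0.26, adjusted p = 0.0121). With MRTX1133 in both arms it was at 97.2 and 155 CPM against 49.1 and 55.3 CPM (−1.27, SE 0.26, adjusted p = 0.00904), and again no library of one arm reached the other. Without 4OHT control replicate 1 the first adjusted p was 0.0982, and without 4OHT MRTX1133 replicate 1 or 2 the second was 0.0763 or 0.0551. At 2 weeks the values were 78.1 and 63.7 CPM with ethanol and 57.3 and 40.4 CPM with 4OHT, and the change was not called (−0.54, SE 0.21, adjusted p = 0.166).

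In 1027B, Cldn2 stood at 364 and 258 CPM in controls, 101 and 119 CPM with trametinib and 165 and 132 CPM with MRTX1133. It fell with both, by 1.5 on the log2 scale with trametinib (SE 0.20, adjusted p = 0.00337) and by 1.07 with MRTX1133 (SE 0.19, adjusted p = 0.0285). The adjusted p for MRTX1133 was 0.0926 without control replicate 1, 0.0741 without MRTX1133 replicate 1 and 0.123 without MRTX1133 replicate 2. Hnf4a also fell in these comparisons, from 459 ± 17.7 to 227 ± 37.7 CPM with trametinib and to 270 ± 39.0 CPM with MRTX1133, and its part in the Cldn2 result was not tested.

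The 3311 cells went the other way. Cldn2 was at 16.4 and 52.7 CPM in controls and at 120 and 190 CPM with trametinib, a rise of 4.49-fold (log2 change 2.17, SE 0.50, adjusted p = 0.0146) in which both treated libraries exceeded both controls. The log2 change was 3.24 without control replicate 2 and 1.55 without control replicate 1, and stayed called in both. It then made 38.9% of the claudin level per kilobase, against 9.66% in controls. Per kilobase Cldn3 was above Cldn2 in both treated libraries, at 48.2 against 36.0 and 58.7 against 57.0 CPM per kb, with ranges that overlapped. Hnf4a in 3311 was at 427 ± 73.9 CPM in controls and 327 ± 89.8 CPM with trametinib, and was not called (adjusted p = 0.208). Members called in 3311 were 3 of 8 tested, against 39% of all genes. Of the others, Cldn7 (log2 change −0.79, adjusted p = 0.0985) and Cldn3 (−0.34, adjusted p = 0.114) were lower in both treated libraries, and Cldn4 was at −0.24. Without trametinib replicate 2 the Cldn7 change was −1.29 (adjusted p = 0.00865), and without trametinib replicate 1 it was −0.43 (adjusted p = 0.434).
Lineage markers moved in 3311 too. The alveolar type 2 sum, with 3 of the 4 genes listed, was 4220 to 4930 CPM in controls and 259 to 387 CPM with trametinib, nearly all of it Sftpb (log2 change −3.82, SE 0.27, adjusted p = 0.000392). The alveolar type 1 sum was 45.5 to 51.8 and then 118 to 261 CPM, within which Ager (3.60, adjusted p = 0.00104) and Hopx (2.84, adjusted p = 0.0158) rose and Rtkn2 fell (−2.12, adjusted p = 0.000913). The part of these markers in the changes of claudins and other junction genes in 3311 was not tested.

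Cldn3 (ENSMUSG00000070473, mouse chromosome 5, plus strand), a sealing claudin, lies next to Cldn4 in the mouse genome, with no protein-coding gene between them. Their windows are shown side by side because the neighbours moved differently. Capitals mark the AP-1 site, which occurs in the Cldn4 window at 240 and 158 bases before the start and not in the Cldn3 window, where none of the searched motifs was found.
Cldn3, chr5:134985964-134986213: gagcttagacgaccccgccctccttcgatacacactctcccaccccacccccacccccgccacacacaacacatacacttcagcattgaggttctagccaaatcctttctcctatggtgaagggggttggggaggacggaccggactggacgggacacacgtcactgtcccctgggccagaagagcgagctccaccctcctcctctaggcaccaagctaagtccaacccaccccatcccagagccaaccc
Cldn4, chr5:134946935-134947184 (minus strand): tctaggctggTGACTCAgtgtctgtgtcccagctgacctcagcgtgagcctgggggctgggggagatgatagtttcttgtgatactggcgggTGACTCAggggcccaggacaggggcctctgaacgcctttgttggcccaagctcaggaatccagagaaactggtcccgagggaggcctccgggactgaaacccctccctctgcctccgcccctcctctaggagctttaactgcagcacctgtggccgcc

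Cldn3 fell with 4OHT in the 48-hour experiment, from 181 and 189 CPM to 73.9 and 52.8 CPM (log2 change −1.55, SE 0.23, adjusted p = 0.00241). With MRTX1133 it fell from 203 and 156 CPM to 76.9 and 54.9 CPM (−1.45, SE 0.23, adjusted p = 0.00321). Wbscr25, listed on the strand opposite 3.18% of the exon bases of Cldn3, had 5 to 26 counts per library there. The ethanol and 4OHT libraries did not overlap, while the libraries with and without MRTX1133 overlapped, with log2 changes of −0.04 with ethanol and 0.06 with 4OHT that were not called. At 2 weeks it was at 145 and 196 CPM with ethanol and 106 and 96.0 CPM with 4OHT. That change, −0.75 (SE 0.18, adjusted p = 0.0549), was not called, although DESeq2 gave an adjusted p of 0.00608 and a fit with no count filter gave 0.0445. The highest adjusted p over the alternatives with all libraries was 0.0636. With 1 library left out the log2 change was −0.97 to −0.52.

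In 1027B Cldn3 was at 57.1 and 104 CPM in controls, 17.4 and 34.0 CPM with trametinib and 28.3 and 43.9 CPM with MRTX1133. It fell with trametinib (log2 change −1.65, SE 0.41, adjusted p = 0.0267), with an adjusted p of 0.120 without control replicate 2 and 0.127 without trametinib replicate 1. With MRTX1133 the change was −1.16 (SE 0.40, adjusted p = 0.147), and with the replicate block the adjusted p was 0.000251, and DESeq2 gave 0.0310. The 5 other alternatives with all libraries did not call it, with an adjusted p of up to 0.151. With 1 library left out the log2 change was −1.53 to −0.64. In both inhibitor groups replicate 1 was the lower library, as it was in the controls.

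**Figure D3:**
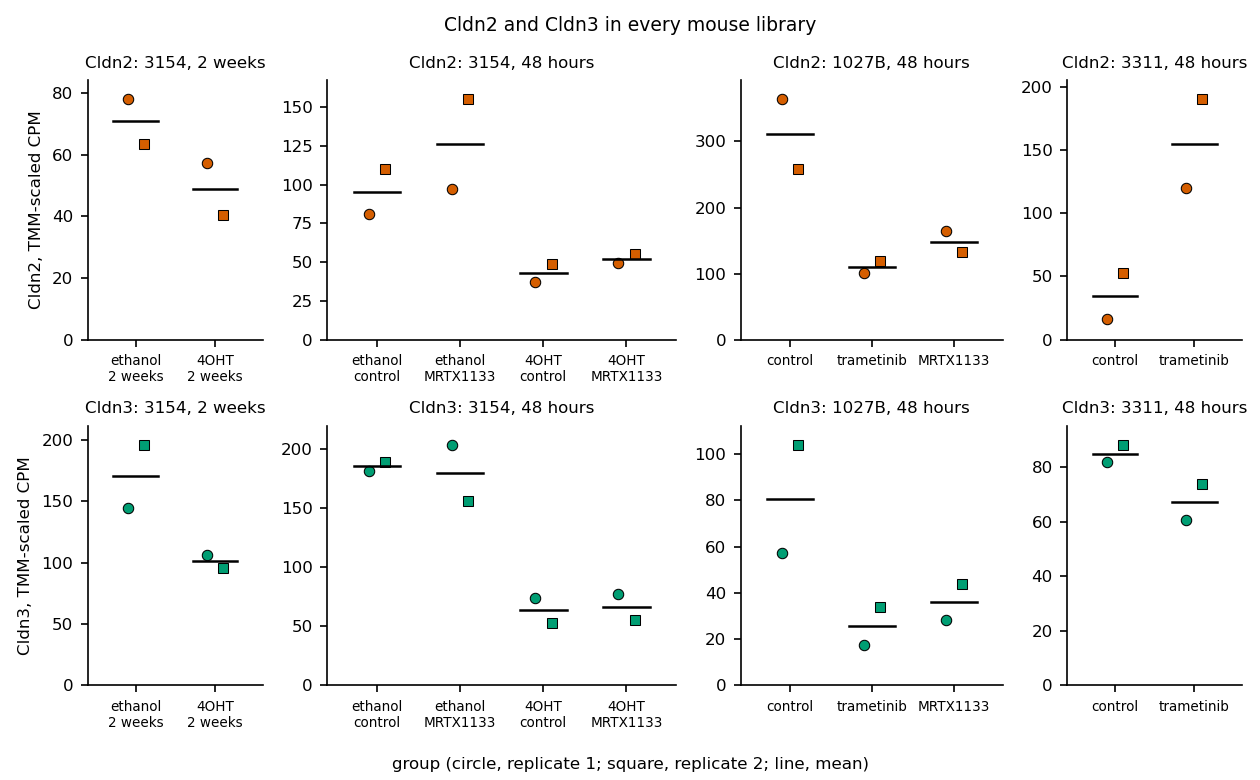
Points give Cldn2 (top) and Cldn3 (bottom) in TMM-scaled CPM for each mouse library (circle, replicate 1, and square, replicate 2), each panel on its own linear axis from 0, and lines give group means. Both genes are lower with 4OHT in 3154 and with either inhibitor in 1027B, and Cldn2 is higher with trametinib in 3311, at 120 and 190 CPM against 16.4 and 52.7 CPM.

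Cldn4 was called once. With MRTX1133 present, it was at 455 and 386 CPM with ethanol and at 813 and 612 CPM with 4OHT, and it rose 1.69-fold (log2 change 0.76, SE 0.17, adjusted p = 0.0135). Both 4OHT libraries exceeded both ethanol libraries. The adjusted p was 0.102 without 4OHT MRTX1133 replicate 1 and 0.0791 without ethanol MRTX1133 replicate 2. In the same pair of groups the adjacent Cldn3 fell, so that Cldn4 made 47.1% of the claudin level per kilobase with 4OHT and MRTX1133, and Cldn3 6.26%, against 31.0% and 19.1% with ethanol and MRTX1133. Cldn4 was not called at 2 weeks (log2 change 0.09) or at 48 hours without MRTX1133 (0.16). Nor was it with MRTX1133 itself in ethanol (−0.18) or 4OHT organoids (0.42, with an adjusted p of 0.0417 in a fit of those 2 groups only), or in 1027B with trametinib (−0.19) or MRTX1133 (−0.06).

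Cldn7, an epithelial claudin known to bind EpCAM, fell in 1027B. It was at 220 and 204 CPM in controls, 141 and 147 CPM with trametinib and 158 and 151 CPM with MRTX1133, and no treated library reached the controls. The fall was by 0.56 on the log2 scale with trametinib (SE 0.094, adjusted p = 0.00757) and by 0.46 with MRTX1133 (SE 0.094, adjusted p = 0.0410). Without trametinib replicate 1 the first adjusted p was 0.0634. The second was 0.103 to 0.191 without control replicate 1 or 2 or MRTX1133 replicate 1 or 2, and 0.0723 in a fit of those 2 groups only. With 4OHT in 3154 the log2 changes of Cldn7 ran from −0.54 to −0.28 over the 3 comparisons, and none was called. For the 48-hour change without MRTX1133, −0.54 (adjusted p = 0.0663), DESeq2 gave 0.0378. The 6 other alternatives with all libraries did not call it, with an adjusted p of up to 0.138. With 1 library left out it was −0.76 to −0.29.

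Cldn6 was abundant in 3154, at 506 to 722 CPM over the 2-week libraries and 213 to 293 CPM over the 48-hour libraries, and was called in no comparison. Its log2 change with 4OHT was 0.32 at 2 weeks (SE 0.14, adjusted p = 0.208), and its other changes in 3154 ran from −0.08 to 0.18. Cldn12, a claudin that lacks the usual end sequence for binding junction scaffold proteins, was among the least variable members, with log2 changes between −0.29 and 0.04 in the 3154 and 1027B comparisons. It fell in 3311 with trametinib, from 77.3 and 67.7 CPM to 46.1 and 55.9 CPM (log2 change −0.51, SE 0.16, adjusted p = 0.0383), with no overlap. That adjusted p was 0.113 without control replicate 1 and 0.300 without trametinib replicate 1.

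Cldn1, a sealing claudin best known from skin, was listed among mouse tables only for 3311. It had 3 and 9 counts in the controls and 140 and 61 counts with trametinib, or 0.111 and 0.358 CPM against 5.02 and 2.32 CPM. The treated libraries were the higher ones, and the rise was 15.5-fold (log2 change 3.96, SE 0.66, adjusted p = 0.00484) from a level that only a few reads measure. It was 4.98 on the log2 scale without control replicate 2, 3.34 without control replicate 1 and 3.29 without trametinib replicate 1. Cldn15, the other channel claudin, reached at most 1.04 CPM in a mouse library, and Cldn23 at most 8.77 CPM. Neither was called in a mouse comparison, although fits of 2 groups only gave Cldn23 an adjusted p of 0.0100 for deletion with MRTX1133 (log2 change 1.15) and 0.00981 for MRTX1133 with 4OHT (0.87). Their largest log2 changes were 2.36 for Cldn15 in 3154 at 2 weeks (SE 0.92, adjusted p = 0.163) and 1.25 for Cldn23 in 3311 (SE 0.85, adjusted p = 0.279).

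**Figure D4:**
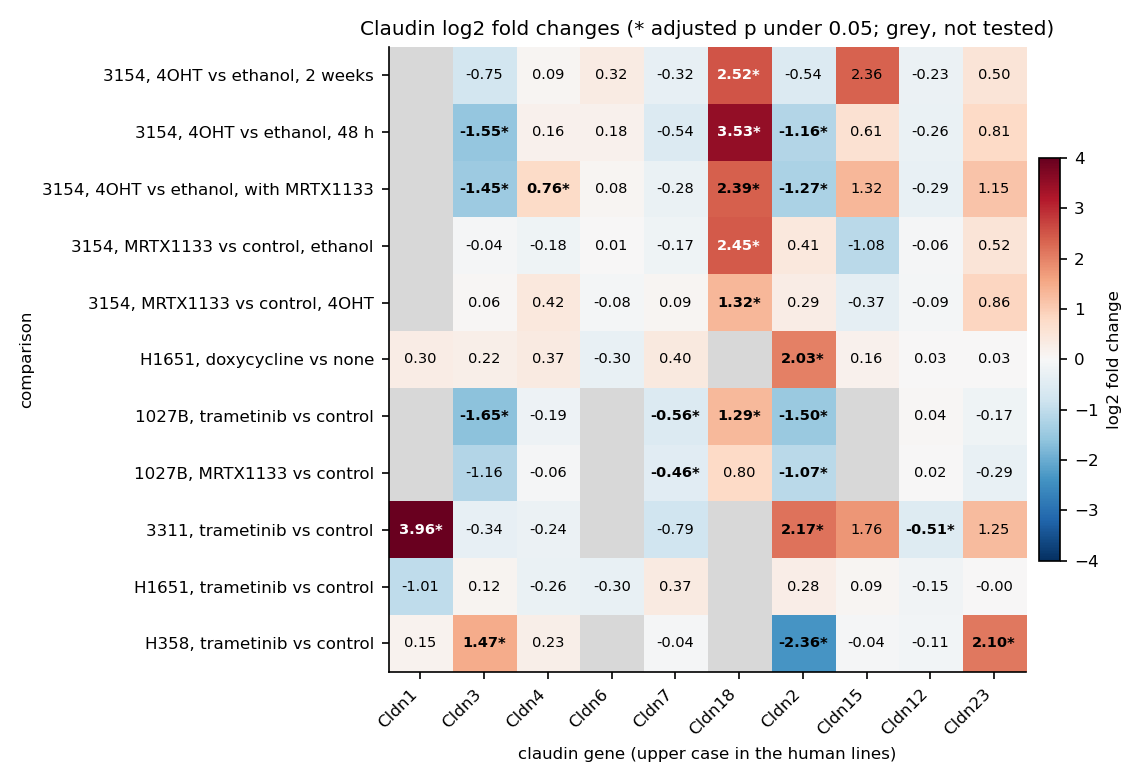
Cells give the log2 fold change of each claudin (columns) in each comparison (rows) on a colour scale from −4 to 4, with an asterisk where the adjusted p is under 0.05 and grey where the gene was not tested. Cldn18 has positive values in every 3154 and 1027B comparison shown, and Cldn2 has called values of both signs.

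The H1651 doxycycline experiment asked the reverse question, with HNF4A raised. CLDN2 was at 2.60 and 1.68 CPM without doxycycline and at 8.41 and 9.0 CPM with it. Both induced libraries were higher, and CLDN2 rose 4.08-fold (log2 change 2.03, SE 0.23, adjusted p = 0.0127). It was the only called member of 9 tested, against 1.42% of all genes. CLDN4 and CLDN7 were also higher in both induced libraries but not called, CLDN4 at 93.1 and 84.4 against 121 and 109 CPM (log2 change 0.37, SE 0.086, adjusted p = 0.108). DESeq2 gave CLDN4 an adjusted p of 0.0498, and the highest over the alternatives with all libraries was 0.12. With 1 library left out its log2 change was 0.30 to 0.45. CLDN7 was at 48.6 and 44.4 against 63.4 and 59.0 CPM (0.40, SE 0.084, adjusted p = 0.0870). CLDN3, whose mouse gene was lower with 4OHT in 3154, was at 13.4 and 10.1 against 14.7 and 12.6 CPM, with groups that overlapped (0.22, adjusted p = 0.681). The log2 changes of CLDN1, CLDN6, CLDN12, CLDN15 and CLDN23 ran from −0.30 to 0.30, and none was called. The sum of the epithelial genes was 4420 CPM in both libraries without and 5720 to 6200 CPM with doxycycline. The sum of the fibroblast genes was 661 to 750 CPM without and 416 to 462 CPM with it, and the part of either in these values was not tested.

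In H358, trametinib called 3 of 8 members, against 46.8% of all genes. CLDN3 rose from 45.9 and 44.3 CPM to 120 and 131 CPM (log2 change 1.47, SE 0.11, adjusted p = 3.82e-05). CLDN23 rose from 4.17 and 4.63 CPM to 16.7 and 21.1 CPM (2.10, SE 0.18, adjusted p = 8.04e-05). In both genes the replicates lay close together and the groups far apart. CLDN2 fell (−2.36, SE 0.65, adjusted p = 0.0176), but it rested on 33 and 10 counts in controls and 5 and 3 counts with trametinib. Its adjusted p was 0.0571 by DESeq2, 0.226 without control replicate 1, where the log2 change was −1.43, and 0.0504 without trametinib replicate 1. CLDN4, at 430 and 343 CPM in controls and 472 and 437 CPM with trametinib, was not called (0.23, SE 0.13, adjusted p = 0.165), and CLDN1, CLDN7, CLDN12 and CLDN15, with log2 changes of −0.11 to 0.15 and overlapping groups, were not called either. CLDN6, with 2 to 10 counts per library, was not tested. The fibroblast genes summed to 40.8 to 49.6 CPM in controls and 246 to 348 CPM with trametinib, with 2 and then 1 of the 7 at 0 counts. The epithelial genes summed to 5340 to 5530 and 3600 to 3880 CPM, and the part of either in these changes was not tested.

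**Figure D5:**
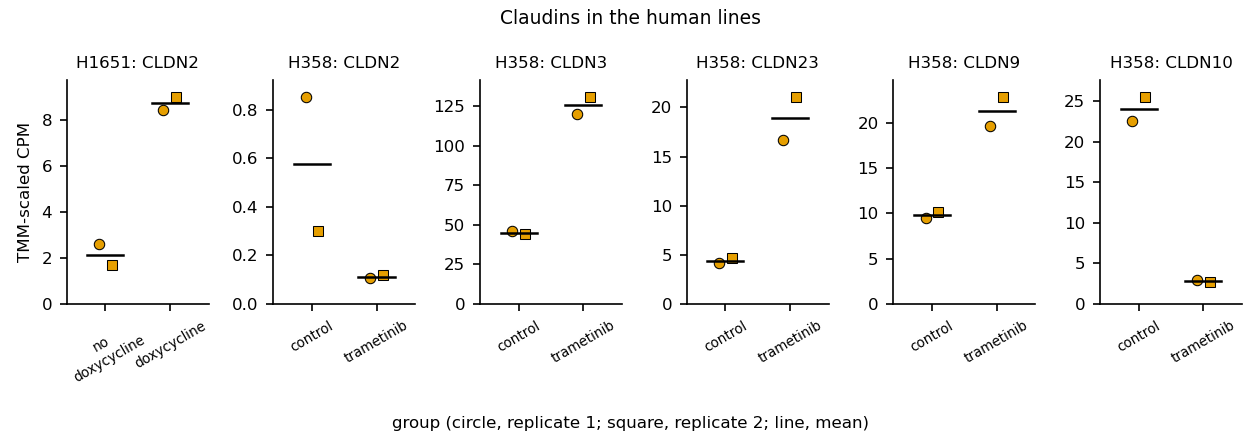
Points give TMM-scaled CPM of each library (circle, replicate 1, and square, replicate 2), each panel on its own linear axis from 0, for CLDN2 in H1651 without and with doxycycline and for 5 claudins in H358 without and with trametinib. CLDN2 is higher with doxycycline, and in H358 CLDN3, CLDN23 and CLDN9 are higher and CLDN10 and CLDN2 lower with trametinib.

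In H1651 with trametinib edgeR called none of the 9 members and 0% of all genes, while 1 member and 597 genes had an unadjusted p under 0.05 and DESeq2 called 44 genes. The member was CLDN1, at 67.5 and 92.6 CPM in controls and 36.6 and 42.8 CPM with trametinib. Its treated libraries were both lower (log2 change −1.01, SE 0.18, adjusted p = 0.999), and DESeq2 gave an adjusted p of 0.00239. Of 6 alternatives with all libraries, 4 did not call it. With 1 library left out its log2 change was −1.22 to −0.76. CLDN7 was at 44.7 and 24 against 52.9 and 36.1 CPM, groups that overlapped. Its log2 change was 0.37 (SE 0.34, adjusted p = 0.999), and 0.0 to 0.89 with 1 library left out. The other 7 members had log2 changes of −0.30 to 0.28.

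The trametinib doses were 10 nM in 1027B, 50 nM in 3311 and 20 nM in the human lines, so the values stand side by side without a test. The log2 change of Cldn2 was −1.5 in 1027B, 2.17 in 3311, 0.28 in H1651 and −2.36 in H358. That of Cldn3 was −1.65, −0.34, 0.12 and 1.47 in the same order. Cldn1 had 3.96 in 3311, −1.01 in H1651 and 0.15 in H358. Thus the called changes of Cldn2 and Cldn3 did not share a direction over the cultures. MRTX1133 was given at 3 nM to 3154 and at 20 nM to 1027B. Its log2 changes in 3154 with ethanol and in 1027B were 0.41 and −1.07 for Cldn2, −0.04 and −1.16 for Cldn3, and 2.45 and 0.80 for Cldn18.

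The median log2 change of the members stayed near that of all genes tested in most comparisons. It was 0.09 at 2 weeks after 4OHT, against 0.02 for all genes, and 0.16 and 0.08 against 0.01 and −0.01 at 48 hours without and with MRTX1133. It was 0.22 against 0.00 with doxycycline, −0.19 against −0.01 in 1027B with trametinib, −0.29 against 0.01 there with MRTX1133, 0.50 against 0.01 in 3311 and 0.05 against 0.02 in H358.

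Among claudins outside the 10, Cldn8, known from kidney and gut, was called higher in 4 of the 6 comparisons in which Cldn18 was. In the 48-hour experiment it was at 0.968 and 0.797 CPM with ethanol and 2.12 and 1.47 CPM with 4OHT (log2 change 1.03, SE 0.28, adjusted p = 0.0280), and at 1.65 and 1.53 against 4.53 and 4.26 CPM with MRTX1133 in both arms (1.47, SE 0.25, adjusted p = 0.00473). It rose with MRTX1133 in 4OHT organoids (1.28, SE 0.25, adjusted p = 0.0329), and with trametinib in 1027B from 0.0484 and 0.867 CPM to 4.90 and 3.08 CPM (3.15, SE 0.80, adjusted p = 0.0290). No library of the lower group reached the higher group in these 4 comparisons. Cldn8 was not called at 2 weeks (−0.18, adjusted p = 0.618), with MRTX1133 in ethanol organoids (0.84, adjusted p = 0.312) or with MRTX1133 in 1027B (2.31, adjusted p = 0.151).
In H358, CLDN9 rose from 9.48 and 10.2 CPM to 19.7 and 22.9 CPM (1.11, SE 0.15, adjusted p = 0.000605), while CLDN6, whose mouse gene lies next to Cldn9, stayed at 10 counts or fewer. CLDN10, a channel-forming claudin, fell from 22.6 and 25.6 CPM to 2.92 and 2.67 CPM (−3.10, SE 0.17, adjusted p = 1.15e-05). The antisense gene CLDN10-AS1 was at 62 and 70 counts in controls and 4 and 0 counts with trametinib, and since no source says that counting used the strand, reads of the pair cannot be told apart.

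The other genes of the tight junction, 24 in a list of partners, scaffolds and polarity proteins, moved in both directions. At 2 weeks 2 of 22 tested rose and none fell, where 9.81% of all genes were called. These were Jam2, an adhesion molecule of the junction, from 3.92 and 5.52 to 26.8 and 41.6 CPM (log2 change 2.86, SE 0.31, adjusted p = 0.0106), and Cgnl1, a junction plaque protein, from 170 and 183 to 308 and 395 CPM (0.99, SE 0.16, adjusted p = 0.0215). At 48 hours 5 rose and 5 fell of 22 without MRTX1133, against 31% of all genes called, and 4 rose and 2 fell with it, against 27.7%. Jam2 again rose the most (2.73 and 2.42), and Ybx3, a junction-associated transcription factor, fell (−0.75 and −0.91). The median of the list was −0.28 at 2 weeks and −0.06 and 0.08 at 48 hours.
In 1027B 4 rose and 2 fell of 22 with trametinib, against 26.7% of all genes called, and 3 rose and 1 fell with MRTX1133, against 6.27%. Jam2, which rose with 4OHT in 3154, fell here from 88.9 and 64.3 CPM to 4.72 and 11.1 CPM with trametinib (−3.28, SE 0.38, adjusted p = 0.00218) and to 14.9 and 15.7 CPM with MRTX1133 (−2.33, SE 0.36, adjusted p = 0.0180). Magi3, a scaffold, rose with both (1.76 and 1.15).

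Under trametinib in 3311 the tight junction list had 11 genes higher and 3 lower of 22, with a median of 0.50, against 39% of all genes called in either direction. In H358 it had 14 higher and 1 lower of 22, with a median of 0.44, against 46.8%. The median of all genes tested was 0.01 in 3311 and 0.02 in H358. Occludin, the strand protein that sits beside the claudins, rose in both, from 35.6 and 55.8 to 114 and 157 CPM for Ocln in 3311 (log2 change 1.56, SE 0.25, adjusted p = 0.00414) and from 23.4 and 25.3 to 62.3 and 80.1 CPM for OCLN in H358 (1.55, SE 0.15, adjusted p = 0.000120). The scaffolds PALS1 (1.53) and TJP3 (1.32) rose in H358 and Magi1 (1.11) in 3311, where Ybx3 fell (−1.30). In H1651 edgeR and DESeq2 called none of 23 genes with doxycycline, 5 of them with an unadjusted p under 0.05, and none of 24 with trametinib, with 1 under it.
With MRTX1133 in 3154 both tools called none of the 22 in ethanol organoids, with 4 at an unadjusted p under 0.05, and edgeR called 2 as lower in 4OHT organoids, Jam2 (−1.08) and Ybx3 (−0.51), where 4.64% of all genes were called.

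Of 13 genes of adherens junctions and desmosomes, the other adhesion belts of epithelia, 3 fell at 2 weeks, Dsp (log2 change −0.85), Pkp2 (−0.72) and Dsg2 (−0.69), all desmosome proteins, and none rose (9.81% of all genes called). At 48 hours 2 rose and 1 fell without MRTX1133 (31%), and 3 rose and none fell with it (27.7%), with Ctnnb1 up in both (0.55 and 0.48). In 1027B with trametinib 5 rose, among them Dsc2 (1.18), Dsg2 (1.05) and Cdh1, which encodes E-cadherin (0.56), and 1 fell (26.7% of all genes called), and with MRTX1133 only Dsc2 rose (0.80), against 6.27%. In 3311 3 rose and 2 fell of 12 (39% of all genes called), and in H358 4 rose and 4 fell of 13 (46.8%), with NECTIN1 at −2.30 and CDH1 at 1.05. Neither edgeR nor DESeq2 called any in H1651 or with MRTX1133 in 3154, where 3 had an unadjusted p under 0.05 with doxycycline, 0 with trametinib, and 2 and 0 with MRTX1133 in ethanol and 4OHT organoids.

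The last list held genes of the EpCAM and matriptase system, in which EpCAM binds claudins such as claudin-7 and matriptase (St14) cleaves EpCAM. Its calls stand against the shares of all genes called that are given above. St14 rose with 4OHT in the 48-hour experiment without and with MRTX1133 (log2 changes 0.44 and 0.45) and ST14 rose in H358 with trametinib (0.63). Spint1, an inhibitor of matriptase, fell at 2 weeks (−0.77) and at 48 hours without MRTX1133 (−0.67). EPCAM fell in H358 (−0.68), and Spint2, the other inhibitor, in 3311 (−0.82). In 1027B, where Cldn7 fell, edgeR called none of 4, with 1 at an unadjusted p under 0.05 for each inhibitor, and DESeq2 called 1 with trametinib. In H1651 both tools called none, with 2 of 4 at an unadjusted p under 0.05 with doxycycline and 0 of 3 with trametinib.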

How the data were processed

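Raw read counts, 1 column a library and 1 row an Ensembl gene, were deposited by the authors in 7 tables. The submitters' processing notes name cutadapt 3.5, STAR 2.7.6a and featureCounts 1.6.3 and the builds mm10, mm39 and hg38, without saying which build a table used or whether counting used the strand. The columns of the 3311 table give treatment and replicate, and its cell line was taken from the table's name. Each table was fitted alone in R 4.3.3 with edgeR 4.0.16 (filterByExpr, TMM, quasi-likelihood F-test, Benjamini-Hochberg adjustment over all genes tested). The 6 libraries of 1027B shared a fit, as did the 8 of the 48-hour 3154 experiment, with their interaction. With 2 libraries a group an exact permutation test cannot go under p = 0.333. The members and gene lists were chosen with earlier results of these data known, and lists are described by counts, with no test. An allele of the mouse cultures and a gene of one list are not reported here.

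Members called are given with library values and the others by values or ranges. Other claudins are named where called and at 1 CPM or more, and from each list up to 3 called genes with the largest change and at least 10 CPM in the higher group, of which a selection is printed. Alternatives were DESeq2 1.42.0, library factors by RLE or by the upper quartile, omission of the count filter, at least 10 counts in every library, 2 groups only, the replicate block, and leaving out each library, where a lone library is taken to vary like the other groups. Fits were tested on simulated counts, with 200 genes changed 3-fold in a comparison from each table. They recovered 72% to 79% of the changed genes. Of the calls, 5.39% to 14.3% fell on unchanged genes, with 11.3% for trametinib in 1027B, 13.9% in 3311 and 14.3% in H1651. These shares lay above the one that the adjusted p threshold implies, so calls may include more false ones than that threshold states. Replicates differed by more than counting noise in every group. In 1027B the correlation of gene-wise replicate differences between groups was 0.243, 0.372 and 0.414 (3 pairs of groups), and its replicate numbers were taken as pairs on that pattern alone. CPM per kilobase used GENCODE vM21 exon lengths. Windows come from RefSeq on GRCm38.p6, and 9 of 10 members had one.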

Additional observations from a re-analysis of the deposited data

Results flagged for a closer look

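Over 42 pairs of trametinib comparisons of a member in 2 cultures, 8 had both libraries of one culture above their controls and both of the other below theirs, 19.0% of the pairs, against 12.4% of the 70227 such pairs over all genes matched by name. Of the 9 member pairs of the 2 deletion experiments of 3154 and the 7 of MRTX1133 in 3154 and 1027B, 0 were of this kind, against 4.72% and 1.94% over all genes. Doses differed between most of these cultures, and the differences of log2 changes were not tested. For Cldn2 the difference was −3.67 between 1027B (−1.5) and 3311 (2.17), and 4.53 between 3311 and H358 (−2.36), where the H358 value rests on 3 to 33 counts per library. For Cldn3 it was −3.12 between 1027B (−1.65) and H358 (1.47) and −1.81 between 3311 (−0.34, not called) and H358. For Cldn1 it was 4.97 between 3311 (3.96) and H1651 (−1.01, not called). For Cldn23 it was −2.27 between 1027B (−0.17, not called) and H358 (2.10). The differences were smaller for Cldn12, 0.55 between 1027B (0.04, not called) and 3311 (−0.51), and for Cldn4, −0.42 between 1027B (−0.19) and H358 (0.23), where neither change was called.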

How the results depend on the processing

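Of 23 member calls, 20 stayed called under every alternative that kept all libraries and tested them (Cldn1 in 3311 and CLDN2 in H358 were not tested with at least 10 counts in every library) and 11 also with each library left out in turn, and 17 changes of members were called only under an alternative. The 17 were counted over alternatives that kept all libraries, so a change called only with 1 library left out is not among them. Calls lost under alternatives with all libraries were Cldn18 with MRTX1133 and ethanol in 3154, Cldn7 with MRTX1133 in 1027B and CLDN2 in H358, given above. The number of members called changed by more than 1.5 times at 2 weeks (1 called) to 2 with DESeq2, 2 with no count filter and 4 with the replicate block, with doxycycline (1) to 2 with DESeq2 and 4 with the replicate block, with MRTX1133 in 1027B (2) to 4 with DESeq2, 4 with the replicate block and 1 with 2 groups only, and with trametinib in H1651 (0) to 1 with DESeq2 and 3 with the replicate block. In fits of 2 groups only it was 0 with MRTX1133 and ethanol and 3 with MRTX1133 and 4OHT in 3154, against 1 in each. Leaving out 1 library gave 0 to 2 members at 2 weeks, 2 to 4 for deletion with MRTX1133, 0 to 2 for MRTX1133 with ethanol, 0 for MRTX1133 with 4OHT, 1 to 2 with doxycycline, 2 to 4 in 1027B with trametinib, 0 to 1 there with MRTX1133 and 0 to 2 in H1651 with trametinib. The change of CLDN4 in H1651 with trametinib, not called, was 0.02 without trametinib replicate 2 and −0.60 to 0.02 over the 4 omissions. Reasons for these shifts were not tested.

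Counts over all genes moved as well. They went from 1421 to 2303 with DESeq2 and 4563 with the replicate block at 2 weeks, from 4795 to 3154 with 2 groups only for deletion at 48 hours, from 54 to 330 with DESeq2 and 0 with 2 groups only for MRTX1133 with ethanol, and from 717 to 1334 with DESeq2 and 3932 with 2 groups only for MRTX1133 with 4OHT. They went from 0 to 36 with DESeq2 for the interaction, from 247 to 451 with DESeq2 and 3048 with the replicate block with doxycycline, from 3880 to 6540 with the replicate block in 1027B with trametinib, and from 913 to 1627 with DESeq2 and 3515 with the replicate block there with MRTX1133. In H1651 with trametinib they went from 0 to 44 with DESeq2, 2 with no count filter and 1881 with the replicate block. Leaving out 1 library gave 395 to 2790 genes at 2 weeks, 1668 to 5964 and 1745 to 2805 for deletion without and with MRTX1133, 0 to 309 and 0 to 23 for MRTX1133 with ethanol and 4OHT, 232 to 412 with doxycycline, 1336 to 2754 and 138 to 349 in 1027B with trametinib and MRTX1133, 3772 to 6298 in 3311 and 0 to 193 in H1651 with trametinib.

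The other tables, like that of 1027B, have replicate numbers with no pairing stated in the labels. Their gene-wise correlation was 0.427 at 2 weeks, 0.318 with doxycycline, 0.126 in 3311, 0.623 in H1651 with trametinib and 0.318 in H358, each over 2 pairs, and −0.251 to 0.549 over the pairs of 48-hour 3154 groups. The members that the replicate block added were Cldn2, Cldn3 and Cldn6 at 2 weeks, CLDN1, CLDN4 and CLDN7 both with doxycycline and in H1651 with trametinib (there with adjusted p of 6.04e-17, 0.00105 and 3.94e-05), Cldn7 in 3311 and CLDN4 in H358, besides Cldn18 and Cldn3 with MRTX1133 in 1027B, and it ended no member's call. Depth limits Cldn15, Cldn1 in 3311 and CLDN2 and CLDN6 in H358, which rest on few reads.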
